A study of Mus musculus with 22 samples.

Results

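The ribosome-bound and total RNA pools of the prefrontal cortex (PFC) were compared in the 3 saline-treated Control mice, from which 6 of the 22 libraries of the series were made. Each mouse gave 2 libraries from the same lysate: total-RNA, taken before the pull-down (Control_total-RNA), and RNA that came down with tagged ribosomes (translating ribosome affinity purification, Control_TRAP). The mice were males of 8 to 12 weeks on a C57BL/6J background that carried 2 transgenes, tetO-EGFP/Rpl10a and CaMKIIα-tTA. They were given normal saline i.p. 2 times a day for 4 days, and the PFC of both hemispheres was removed 2 h after the second injection of day 4. The other 16 libraries came from 4 mice given EtOH and 4 given EtOH with the PARP inhibitor ABT-888, of the same genotype, and are used here only beside a Control value. In these mice the tTA transactivator is made where the CaMKIIα promoter is active, and it switches on the ribosomal protein Rpl10a fused to EGFP. All 3 groups carry both transgenes, and the cells that made the tag were not counted here. No library without the tag or without the antibody was analysed here, so RNA that sticks to the beads cannot be told apart from RNA held by tagged ribosomes.

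TRAP works on the principle that an antibody against the tag draws out ribosomes together with the mRNAs they are translating, with cycloheximide holding ribosomes in place. Transcripts of cells that make the tag become a larger share of the purified RNA, and transcripts of other cells become a smaller share. CaMKIIα is the kinase subunit by which excitatory projection neurons of the cortex and hippocampus are usually marked. It is also expressed by the spiny projection neurons of the striatum. Astrocytes, oligodendrocytes, microglia and vessel cells are taken to lack it.

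Counts per library ranged from 9604310 to 18960961 in Control_TRAP and from 24019886 to 31500276 in Control_total-RNA. Across genes, log levels correlated at 0.972 to 0.977 within TRAP, at 0.991 to 0.992 within total-RNA and at 0.876 to 0.914 between them. The 10 most abundant genes accounted for 3.08 to 3.42% of the counts in TRAP and for 7.08 to 8.21% in total-RNA. Levels are given in CPM (counts scaled to a common library size) scaled by TMM, per mouse in the order 1, 4 and 7, and ratios as log2 of TRAP over total-RNA with a standard error (SE) from edgeR's quasi-likelihood fit with the mouse as a block. A gene was called higher or lower in TRAP at a Benjamini-Hochberg adjusted p under 0.05, and an adjusted p comes from that fit over 14072 genes unless another fit is named beside it. CPM is a share of a library, so a lower value means a smaller share and not necessarily fewer molecules. In such bulk samples fewer cells of a type and less RNA per cell cannot be told apart.

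Of the 14072 genes tested, 8788 were called (62.5%), of which 4355 were higher in Control_TRAP (30.9%) and 4433 lower (31.5%). The values of the 3 TRAP and the 3 total-RNA libraries did not overlap for 66.9% of the genes. Changes of at least 2-fold were found in 1091 genes that were higher (7.75%) and 2512 that were lower (17.9%). The median ratio over all genes was 0.01 on the log2 scale, and called genes differed by a median of 0.82. Of the called genes, 8754 had the same direction in all 3 mice.

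**Figure D1:**
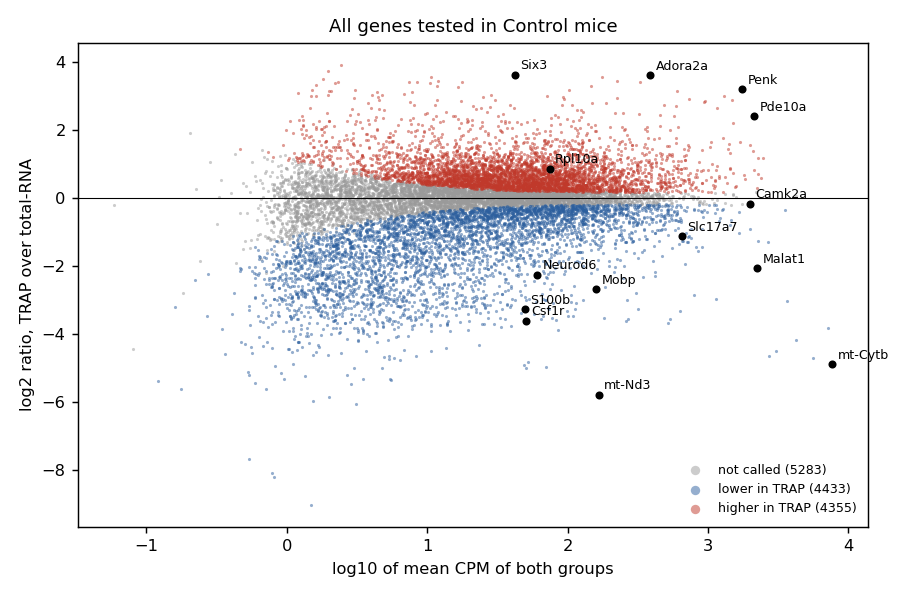
Log2 ratio of Control_TRAP over Control_total-RNA against the log10 of the mean CPM of both groups, 1 point per gene, coloured by call. Striatal transcripts (Six3, Adora2a, Penk, Pde10a) sit at the top, mitochondrially encoded transcripts (mt-Cytb, mt-Nd3) at the bottom, and Camk2a near 0. One gene with no Control count is not drawn.

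The most enriched set was not cortical. All 18 markers of striatal projection neurons were higher in Control_TRAP, each by at least 2-fold, with a median log2 ratio of 2.90 (7.48-fold) beside 0.01 and a share of 30.9% higher over all genes. Their summed level was 2346 to 3056 CPM in total-RNA and 17290 to 21400 CPM in TRAP. Markers of cortical pyramidal neurons split, with 6 higher and 9 lower of 16, and Camk2a itself did not pass the test. The tissue is labelled PFC. Whether striatal cells came with the dissection, or how many of them carried the tag, was not tested.

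The 3 striatal markers Drd2, Six3 and Gpr6 encode a dopamine receptor, a transcription factor and an orphan receptor. Their promoter sequences are shown because the striatal group moved as a block. They are the 100 bases before the RefSeq start on GRCm38.p6, 5′ to 3′, with GC boxes (GGGCGG or its complement CCGCCC, the binding motif of Sp1-type factors) in capitals. Drd2 lies at chr9:49340303-49340402 on the plus strand, Six3 at chr17:85620734-85620833 on the plus strand and Gpr6 at chr10:41072291-41072390 on the minus strand.
Drd2: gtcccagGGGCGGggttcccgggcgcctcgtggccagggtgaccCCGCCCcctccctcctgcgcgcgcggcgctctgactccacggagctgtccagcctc
Six3: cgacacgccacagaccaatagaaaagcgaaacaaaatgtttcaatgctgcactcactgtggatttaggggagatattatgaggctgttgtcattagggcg
Gpr6: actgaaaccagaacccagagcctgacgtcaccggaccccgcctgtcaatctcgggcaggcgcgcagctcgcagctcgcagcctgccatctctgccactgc
The window of Drd2 held 2 GC boxes and those of Six3 and Gpr6 none. Searched over 250 bases before the start on both strands, a GC box was in 6 of the 18 promoters that the table held for 13 of the striatal markers (33.3%), in 56.7% of the promoters of tested genes and in 32.7% of all promoters. A TATA box (TATAAA or TTTATA) was in 5.56%, 6.42% and 12.4% of them. Neither motif was common to the list.

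Penk, which encodes proenkephalin, is on chr4:4133531-4138819 (mm10, GENCODE M21). Its level was 3351, 3075 and 3099 CPM in Control_TRAP and 316, 346 and 367 CPM in Control_total-RNA. The groups were far from overlapping, and Penk was among the most abundant transcripts of the TRAP pool (log2 ratio 3.21, SE 0.09, adjusted p = 2.006e-08). It overlaps A830012C17Rik on the other strand by 233 bases, and the strand setting of the counting is not given in the sources used here. Adora2a, an adenosine receptor of the indirect pathway (chr10:75316877-75334784), stood at 706, 832 and 619 CPM against 49.6, 72.3 and 53.0, a log2 ratio of 3.63 (SE 0.09, adjusted p = 2.006e-08). Drd2, the dopamine D2 receptor (chr9:49340627-49408177), stood at 664, 622 and 509 CPM against 48.5, 69.6 and 51.6, a log2 ratio of 3.41 (SE 0.12, adjusted p = 3.883e-08). Every TRAP library was above every total-RNA library for both receptors, and mouse 4 had the highest total-RNA value of each.

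Direct-pathway transcripts were enriched as well. Drd1, the dopamine D1 receptor, was at 421 ± 52.4 CPM (SD, n = 3) in TRAP and at 74.0 ± 8.33 CPM in total-RNA, with every TRAP library above every total-RNA library (log2 ratio 2.50, SE 0.09, adjusted p = 6.536e-08). Tac1, the substance P precursor, rose from 52.5, 49.2 and 52.1 CPM to 433, 403 and 351 CPM (log2 ratio 2.94). Pdyn, which encodes prodynorphin, had a log2 ratio of 2.32. The ratios of the indirect-pathway genes Penk, Adora2a and Drd2 were above those of Drd1, Tac1 and Pdyn in value, and that difference was not tested.

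Signalling proteins shared by both pathways were higher as well. Ppp1r1b (DARPP-32, the dopamine-regulated phosphatase inhibitor) was at 2243, 2738 and 1939 CPM in TRAP and at 255, 321 and 281 CPM in total-RNA (log2 ratio 3.01, SE 0.09). The phosphodiesterase Pde10a reached the highest TRAP level of the list, 3413, 3993 and 3402 CPM, from 563, 793 and 692 CPM (log2 ratio 2.41, SE 0.09). Adcy5, Gng7, Rgs9 and Rasd2, a cyclase, a G protein subunit, a regulator of G protein signalling and a small GTPase, lay between 2.47 and 3.16. The transcription factors Six3 (3.64), Rarb (2.60), Isl1 (2.47) and Ebf1 (1.59) were also higher, and Ebf1 had the smallest ratio of the 18. Rarb overlaps Top2b on the other strand by 1793 bases, Ppp1r1b overlaps 1700003D09Rik by 460, and Six3 overlaps Gm28528 by 168 and Six3os1 by 106, so reads of these genes cannot be assigned with certainty. Isl1 and Ebf1 were rare, at 14.4 to 23.8 CPM in TRAP. In mice 1, 4 and 7 the median log2 ratio of the list was 3.11, 2.93 and 2.69.

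The protein-coding genes with the largest increases, among called genes of at least 5 CPM on average whose groups did not overlap, held 4 of these markers (Six3, Adora2a, Syndig1l and Drd2). The other 6 were Rxrg (3.57), Tmem200b (3.57), Zfp503 (3.45), Sbsn (3.43), Dlx5 (3.43) and Fgf3 (3.42). Rxrg, a retinoid X receptor on chr1:167598384-167639623, was at 328, 365 and 281 CPM in TRAP and at 26.3, 31.5 and 24.2 CPM in total-RNA. Rxrg and Zfp503 are known from the striatum. Sbsn, a secreted epidermal protein, and the growth factor Fgf3 were low in total-RNA, at no more than 1.91 CPM in any mouse.

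**Figure D2:**
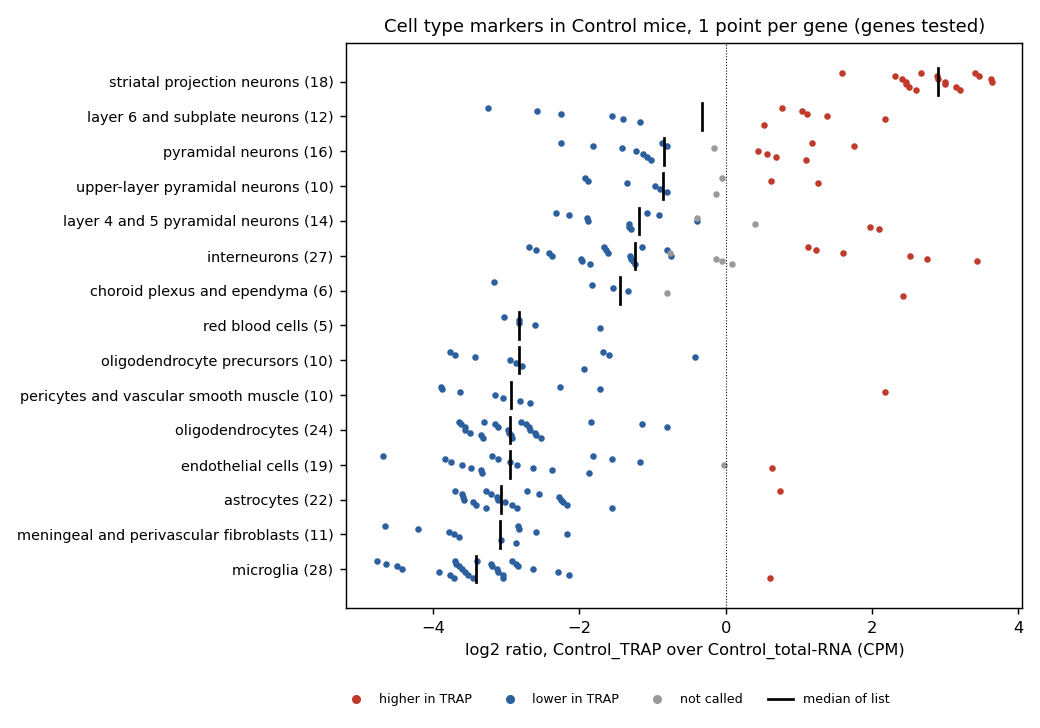
Log2 ratio of Control_TRAP over Control_total-RNA for every tested marker of 15 cell types (number tested in parentheses), coloured by call, with the median of each list as a black bar. All 18 striatal markers lie to the right of 0, cortical neuron and interneuron lists spread to both sides, and glial, vascular and blood markers lie almost wholly to the left.

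Cortical pyramidal neuron markers did not move together. Camk2a was at 1875, 1998 and 1721 CPM in TRAP and at 2228, 2258 and 1802 CPM in total-RNA, and the groups overlapped (log2 ratio -0.16, SE 0.08, adjusted p = 0.083). DESeq2 called it lower, as did edgeR without the filter on low counts or without mouse 7 (adjusted p = 0.035, 0.038 and 0.020). Slc17a7, the vesicular glutamate transporter VGLUT1 that defines cortical excitatory neurons (chr7:45163949-45176142), was lower, at 350, 448 and 426 CPM against 922, 993 and 759 (log2 ratio -1.13, SE 0.10, adjusted p = 7.54e-06). Transcription factors of this lineage were lower too. Neurod6 fell furthest, from 95.8, 98.1 and 106 CPM to 21.2, 17.4 and 25.2 CPM (log2 ratio -2.25, SE 0.11, adjusted p = 1.64e-07). Neurod1 (-1.81), Tbr1 (-1.22), Neurod2 (-1.07) and Emx1 (-0.81, not called without mouse 1 or in the fit to all 22 libraries) were also lower, as were the synaptic genes Sv2b (-1.02) and Nptx1 (-0.87).

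The other 6 called pyramidal markers were higher, among them 2 that are also known from striatal neurons. Of these, Arpp21, a cAMP-regulated phosphoprotein, was at 2090, 2257 and 1636 CPM in TRAP and at 548, 588 and 617 CPM in total-RNA (log2 ratio 1.76, SE 0.11, adjusted p = 7.392e-07). Nrgn, the calmodulin-binding protein neurogranin, was the most abundant of the list in TRAP, at 3403, 3546 and 2497 CPM against 1501, 1426 and 1192 (log2 ratio 1.19, SE 0.08). Camkv (1.10), Itpka (0.68), Ptk2b (0.56) and Chn1 (0.45) made up the rest. The summed level of the 16 markers was therefore higher in TRAP, 10430 to 12440 CPM, than in total-RNA, 8162 to 9248 CPM, while the median of their log2 ratios was -0.84.

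Of 10 upper-layer markers, 2 were higher (Otof, 1.27, and Wfs1, 0.62), 6 lower and 2 not called. This count and that of layers 4 and 5 stand beside 30.9% higher and 31.5% lower over all genes. Cux1, the most abundant of the layer markers that were not called, had a log2 ratio of -0.05 (SE 0.09). Rasgrf2 was lower, at 48.3, 35.1 and 74.5 CPM in TRAP and 196, 172 and 193 CPM in total-RNA (log2 ratio -1.88). Of 14 markers of layers 4 and 5, 10 were lower, among them Rorb (-1.88) and Fezf2 (-2.32), the factor that specifies subcerebral projection neurons. The 2 that were higher were Bcl11b (CTIP2, 1.98), at 513, 773 and 483 CPM against 125, 172 and 145, and Pcp4 (2.10), at 1125, 752 and 1097 CPM against 249, 221 and 216. Both are also known as genes of striatal neurons.

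Of 12 tested markers of layer 6 and the subplate, 6 were higher and 6 lower, beside 30.9% and 31.5% of all genes. Syt6 (2.18), Foxp2 (1.04), Tle4 (0.77) and Hs3st4 (0.53) were higher, and Foxp2 is a transcription factor of the striatum as well. Ccn2, a subplate gene, was lower at 3.71, 3.00 and 6.27 CPM against 36.9, 43.2 and 41.4 (log2 ratio -3.25, SE 0.20, adjusted p = 6.341e-07). Tshz2 (-2.26) and Cplx3 (-2.58) were lower by smaller amounts. Nr4a2 was lower too (-1.18), with mouse 7 at 33.9 CPM in TRAP and mice 1 and 4 at 15.2 and 11.3 CPM.

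Of 27 tested interneuron markers 6 were higher and 17 lower, beside 30.9% and 31.5% of all genes, and 4 were not called. Gad1 and Gad2, the glutamate decarboxylases, were at 679, 729 and 734 CPM and at 703, 656 and 692 CPM in TRAP. In total-RNA they were at 288, 316 and 305 CPM and at 289, 302 and 351 CPM, which gave log2 ratios of 1.24 and 1.13 (SE 0.07 and 0.08). Slc32a1, the vesicular GABA transporter, had a larger ratio of 2.52 (SE 0.07, adjusted p = 2.006e-08), at 385, 406 and 329 CPM against 64.5, 70.9 and 59.5. The homeobox genes Dlx5 (3.43) and Dlx6 (2.75) and the extracellular protein Reln (1.61) completed the 6. Slc32a1, Dlx6 and Reln each overlap a gene on the other strand. Gad1, Gad2 and Slc32a1 are used by every GABAergic neuron, the striatal projection neurons included.

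Markers of single interneuron classes were mostly among the 17 that were lower. Pvalb, which marks fast-spiking basket cells, was at 7.21, 4.42 and 7.23 CPM in TRAP and 32.9, 31.7 and 31.3 CPM in total-RNA (log2 ratio -2.38, SE 0.16, adjusted p = 1.404e-06). Npy (-1.96), Sox6 (-2.42), Lhx6 (-1.26), Erbb4 (-1.85), Ndnf (-2.60) and Prox1 (-1.98) were lower as well. Vip was uneven, at 6.36, 18.6 and 55.8 CPM in TRAP against 60.9, 46.6 and 58.6, and the groups overlapped although it was called (log2 ratio -1.30, SE 0.41, adjusted p = 0.018). Vip was not called by DESeq2, by the exact test, without the mouse block or without mouse 1. Sst was not called, at 33.8, 55.3 and 82.3 CPM against 68.3, 57.1 and 55.4 (log2 ratio -0.13, SE 0.22), and was called lower without mouse 7 (adjusted p = 0.012). For Vip, Sst and Npy the TRAP library of mouse 7 was the highest, and the median ratio of the list in that mouse was -0.58 beside -1.45 in mouse 1 and -1.14 in mouse 4.

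**Figure D3:**
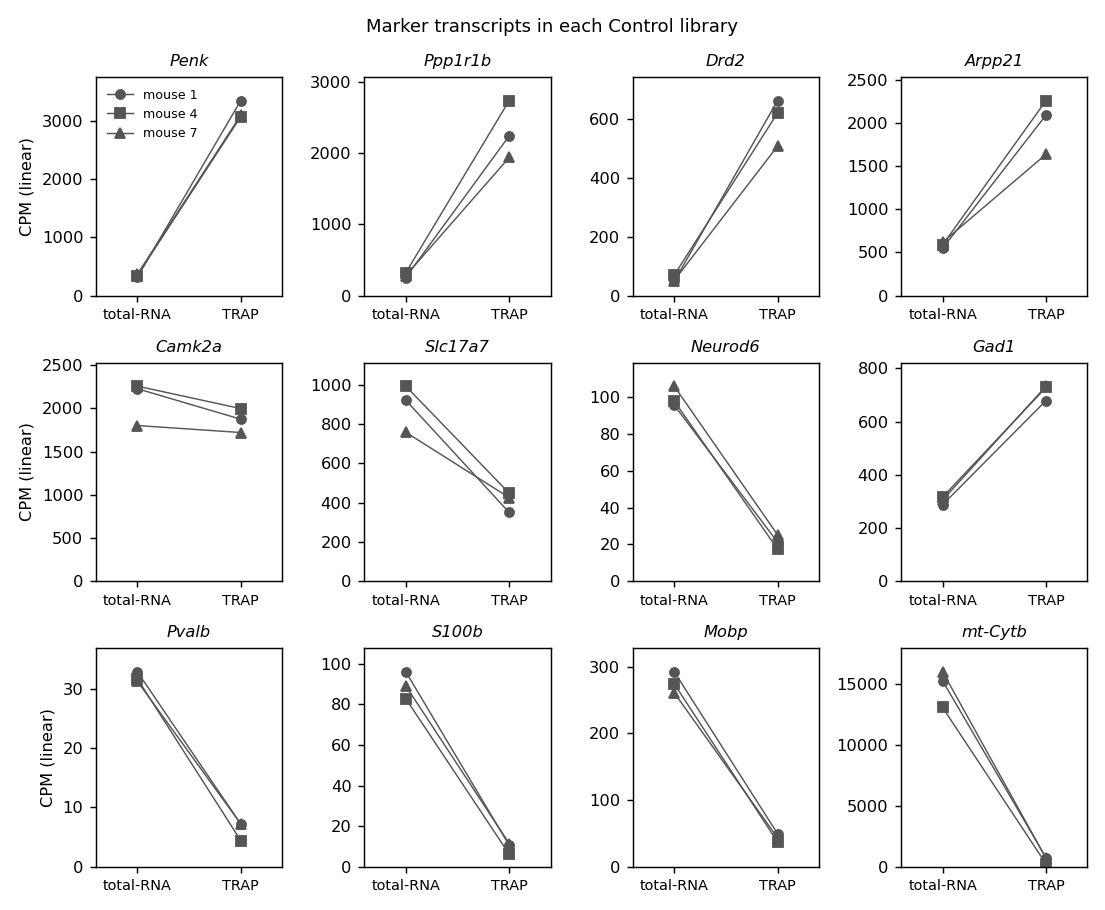
CPM of 12 marker transcripts in the 6 Control libraries on linear axes from 0, with a line joining the total-RNA and TRAP libraries of each mouse. Penk, Ppp1r1b, Drd2, Arpp21 and Gad1 rose in each mouse, Slc17a7, Neurod6, Pvalb, S100b, Mobp and mt-Cytb fell in each, and Camk2a fell slightly in each without passing the test.

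Glial transcripts were depleted. Counts of the glial, vascular, meningeal and blood lists stand beside 31.5% lower over all genes. Of 22 astrocyte markers 21 were lower, each by at least 2-fold, with a list median of -3.07 (8.38-fold lower). S100b, a calcium-binding protein of astrocytes (chr10:76253853-76261159), was at 10.6, 6.22 and 11.5 CPM in TRAP and 96.1, 82.9 and 89.2 CPM in total-RNA (log2 ratio -3.28, SE 0.14, adjusted p = 1.336e-07). Slc1a2, the glutamate transporter GLT-1, was the most abundant marker and fell from 6814, 6659 and 6009 CPM to 1097, 511 and 904 CPM (log2 ratio -3.02, SE 0.19). Aqp4 (-3.60), Glul (-2.85) and Gfap (-2.72) behaved likewise. The exception was Slc4a4, a sodium bicarbonate cotransporter, which was higher at 492, 510 and 396 CPM against 257, 293 and 281 (log2 ratio 0.74, SE 0.09, adjusted p = 5.062e-05). The whole list summed to 1500 to 2369 CPM in TRAP and 11090 to 12600 CPM in total-RNA.

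All 24 oligodendrocyte markers and all 10 precursor markers were lower, with medians of -2.95 and -2.83. Mobp, a protein of myelin, was at 49.5, 37.0 and 43.2 CPM in TRAP and 292, 274 and 261 CPM in total-RNA (log2 ratio -2.68, SE 0.09, adjusted p = 3.784e-08). Mbp, a myelin mRNA that is carried into processes, had 186, 185 and 164 CPM against 598, 711 and 609 (log2 ratio -1.84, SE 0.08). Among the precursor markers Pdgfra was lowest at -3.77, and Lhfpl3 was the one below 2-fold at -0.42.

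Of 28 microglial markers 27 were lower, with a median of -3.42 (10.7-fold lower), the deepest of the 15 cell type lists. Csf1r, the receptor on which microglia depend, was at 8.69, 5.24 and 9.61 CPM in TRAP and 94.8, 95.8 and 89.3 CPM in total-RNA (log2 ratio -3.60, SE 0.17, adjusted p = 1.623e-07). The sialic acid-binding lectin Siglech (-4.77) and the orphan receptor Gpr34 (-4.65) were among the 10 protein-coding genes with the largest decreases. Irf8 was the exception at 5.19, 5.56 and 4.69 CPM against 3.20, 4.07 and 2.89, which passed the test narrowly (log2 ratio 0.61, SE 0.24, adjusted p = 0.047) and did not with any mouse left out (adjusted p = 0.084 to 0.17). The call was also lost with DESeq2, with RLE factors, with library size alone, without the filter and in the fit to all 22 libraries (adjusted p = 0.051 to 0.24).

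Vascular, meningeal and blood markers were lower by like amounts. Endothelial markers were lower in 17 of 19 tested (median -2.95), pericyte and smooth muscle markers in 9 of 10 (median -2.93), fibroblast markers in 11 of 11 (median -3.08) and haemoglobin and other red cell markers in 5 of 5 (median -2.83). Pericyte genes such as Vtn (-3.88) and Pdgfrb (-3.90) and the perivascular macrophage and fibroblast genes Mrc1 (-4.69) and Dcn (-4.65) were each at 3.18 CPM or less in every TRAP library. Tagln, a smooth muscle actin-binding protein, was higher at 9.43, 21.2 and 11.6 CPM against 2.70, 3.72 and 2.58 (log2 ratio 2.18). It overlaps Gm48529 by 1241 bases and Pcsk7 on the other strand, so its reads cannot be assigned with certainty. The endothelial adhesion gene Esam was also higher (0.63), though not without mouse 4, without mouse 7, with DESeq2 or in the fit to all 22 libraries. Of the 6 choroid plexus and ependymal markers that could be tested, 4 were lower, Clic6 was higher (2.43) and Kl was not called (-0.80). Kl was called lower without mouse 7 and without the filter on low counts. Among the 4, Ttr was lower (-3.17) although its groups overlapped, since it ranged from 3.33 to 99.2 CPM between mice in total-RNA.

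TRAP of mouse 4 held the smallest share of the astrocyte, oligodendrocyte and microglial markers. For pericyte markers the summed level in TRAP was lowest in mouse 7, and so was the median ratio of red cell markers. The median log2 ratios in mice 1, 4 and 7 were -2.85, -3.52 and -2.80 for astrocyte markers, -2.70, -3.58 and -2.66 for oligodendrocyte markers and -3.32, -3.81 and -2.96 for microglial markers. The TRAP library of mouse 4 was also the deepest of the 3, and the part of depth in the difference was not tested.

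Mitochondrially encoded mRNAs, which are translated by the organelle's own ribosomes, were the most depleted class, and nuclear-encoded partners of the same complexes were enriched. All 13 mitochondrial mRNAs were lower, with a median of -4.72 (26.4-fold lower), and their sum fell from 53210 to 62810 CPM in total-RNA to 1577 to 4090 CPM in TRAP. mt-Cytb, the cytochrome b subunit of complex III, was at 739, 238 and 692 CPM in TRAP and 15220, 13040 and 15970 CPM in total-RNA (log2 ratio -4.88, SE 0.26, adjusted p = 2.859e-07). mt-Nd1 (-4.72) and mt-Co1 (-3.83) were of the same order, and mt-Nd6, the one mRNA of the other strand of the circle, was least depleted at -2.35 (SE 0.07). Mouse 4 was again lowest, with a median of -5.44 beside -4.08 and -4.27. In total-RNA mt-Co2, mt-Co3, mt-Atp6, mt-Atp8 and mt-Nd4l stood at no more than 13.9 CPM in any library. Such genes have near-identical nuclear copies, and how shared reads were treated is not given in the sources used here, so their own ratios are not read. Without these 5 the median of the other 8 was -4.57 (23.8-fold lower).

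Beside 30.9% higher and 31.5% lower over all genes, 68 of 79 tested nuclear-encoded subunits of oxidative phosphorylation were higher and 1 lower. Their median was 0.60 (1.51-fold). The ATP synthase subunits Atp5b (0.61) and Atp5a1 (0.57) and the complex IV subunit Cox4i1 (0.56) were the most abundant that rose. Ndufa1, an accessory subunit of complex I, had the largest ratio, at 119, 99.0 and 112 CPM in TRAP and 40.0, 33.8 and 31.5 CPM in total-RNA (log2 ratio 1.65, SE 0.09, adjusted p = 3.506e-07). Cox6a2, a heart and muscle isoform that is also known from parvalbumin interneurons, was the one that was lower (-1.54). Mitochondrial ribosomal proteins, likewise made in the cytosol, were higher in 54 of 77 and lower in 1 (Mrps22, -0.43), with a median of 0.50.

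**Figure D4:**
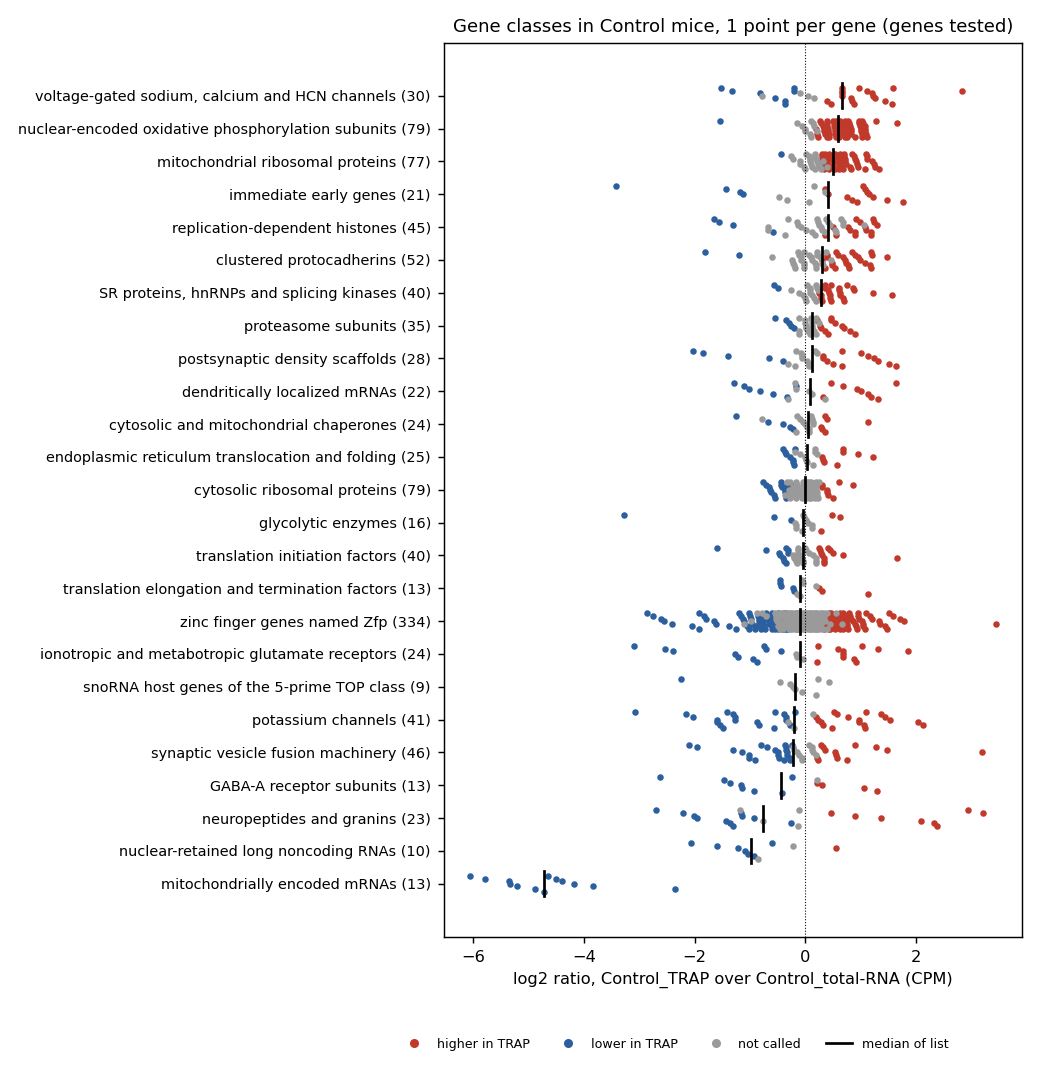
Log2 ratio of Control_TRAP over Control_total-RNA for every tested member of the gene classes (number tested in parentheses), coloured by call, with the class median as a black bar and the classes ordered by it. Mitochondrially encoded mRNAs stand alone at the bottom, nuclear-encoded oxidative phosphorylation subunits lie mostly to the right of 0, and cytosolic ribosomal proteins cluster at 0.

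The protein synthesis machinery was close to balanced between the pools. Over all genes 30.9% were higher and 31.5% lower. Of 79 cytosolic ribosomal proteins 8 were higher, 17 lower and 54 not called, none changed by 2-fold and the median was -0.01. These counts were 3 and 19 without mouse 1, 18 and 13 without mouse 4, 8 and 24 without mouse 7, 7 and 7 without the mouse block, 7 and 9 with the exact test and 6 and 4 in the fit to all 22 libraries. The largest ratio was that of Rpl10a (chr17:28328471-28331033), whose tagged form was used for the pull-down, at 93.6, 90.3 and 104 CPM in TRAP and 57.8, 48.0 and 52.7 CPM in total-RNA (log2 ratio 0.87, SE 0.09, adjusted p = 1.709e-05). The transgene carries the Rpl10a coding sequence, and its part in this count was not tested. Ribosomal protein genes have many processed pseudogenes, so their counts are uncertain where reads are shared. The median of the class in mice 1, 4 and 7 was 0.13, -0.23 and 0.03.

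Of 40 initiation factors 12 were higher and 10 lower, beside 30.9% and 31.5% of all genes. Eif1, which governs start codon selection (chr11:100319885-100322096), stood apart at 402, 335 and 339 CPM in TRAP and 122, 115 and 103 CPM in total-RNA (log2 ratio 1.66, SE 0.07, adjusted p = 1.363e-07). Eif3a (-0.48) and Eif4g1 (-0.31) were lower, the latter not without mouse 1, without mouse 4 or in the fit to all 22 libraries. Of 13 elongation and termination factors 3 were higher, led by Eif5a (1.14), and 5 lower, with Eef1a1, the most abundant, at -0.21, a call that was lost without mouse 1, without mouse 4, with the exact test, in the fit to all 22 libraries and without the mouse block (adjusted p = 0.085). The class held 1 higher and 2 lower without mouse 1, 2 and 3 without mouse 4, and 1 and 3 in the fit to all 22 libraries. Of the 9 host genes of small nucleolar RNAs with a 5′ terminal oligopyrimidine start, none was higher and Snhg3 was lower (-2.25). In this list 2 were lower without mouse 1, without mouse 4, with RLE factors, with library size alone, without the filter and with total-RNA thinned to TRAP depth.

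Counts for the classes of protein quality control and glycolysis stand beside 30.9% higher and 31.5% lower over all genes. Proteasome subunits were higher in 12 of 35 and lower in 5, with none past 2-fold, and 1 was lower without mouse 1 or in the fit to all 22 libraries and 3 without mouse 4. Chaperones were higher in 6 of 24 and lower in 5 (2 without mouse 1), with Hspa8 at -0.40 and Hsp90aa1 at -0.67 among the abundant ones. Endoplasmic reticulum translocation and folding genes were higher in 8 of 25 and lower in 8 (4 and 3 without mouse 1, 8 and 4 without mouse 7, 8 and 3 without the mouse block), and Dad1, an oligosaccharyltransferase subunit, rose to 2.35-fold. Glycolytic enzymes were higher in 3 of 16 and lower in 3 (5 without mouse 7). The neuronal enolase Eno2 was higher (0.63), and Aldoc, the aldolase of astrocytes, was lower at 74.1, 38.9 and 69.9 CPM against 642, 562 and 511 (log2 ratio -3.27, SE 0.16), a value close to the median of the astrocyte list, in which it also stands.

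Of 46 genes for vesicle fusion 13 were higher and 22 lower, beside 30.9% higher and 31.5% lower over all genes. Vamp2 (synaptobrevin, the vesicle SNARE of most synapses) was higher at 1057, 1060 and 856 CPM against 435, 436 and 353 (log2 ratio 1.28, SE 0.07). Its partner Snap25 was lower (-0.36), as was the calcium sensor Syt1 (-0.91). The related sensors Doc2b and Doc2a moved in opposite directions, Doc2b to 162, 234 and 156 CPM from 18.1, 19.6 and 21.9 (log2 ratio 3.19) and Doc2a to 6.25, 5.95 and 11.3 CPM from 35.0, 32.8 and 32.1 (log2 ratio -2.11). Doc2a overlaps Ino80e on the other strand by 1103 bases.

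Postsynaptic density scaffolds were higher in 12 of 28 and lower in 5, beside 30.9% and 31.5% of all genes. Dlg4 (PSD-95) was higher at 1477, 1572 and 1244 CPM against 733, 800 and 612 (log2 ratio 1.00, SE 0.07), and its binding partners divided. Dlgap3, a SAPAP protein known for its high striatal expression and its mRNA in dendrites, was higher (1.65), whereas Dlgap1 (-1.40) and Homer2 (-1.86) were lower. Among 22 dendritically localized mRNAs, 9 were higher and 7 lower, with a median of 0.09 beside 0.01 and shares of 30.9% and 31.5% over all genes, and the long transcripts of Map2 (-1.02) and Kif5a (-1.29) were on the lower side.

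Receptor subunits for glutamate were higher in 11 of 24 and lower in 10, beside 30.9% and 31.5% of all genes. Grin1, the obligatory NMDA receptor subunit, was higher (0.69) and overlaps Grin1os by 1307 bases, while Grin2a was lower (-0.43) and Grin2b did not pass the test (-0.17), though it did in DESeq2, without the filter and with library size alone (adjusted p = 0.027, 0.033 and 0.048). Grin2c, which is expressed in astrocytes of the cortex, was lowest at 2.44, 2.45 and 3.50 CPM against 25.6, 28.8 and 19.1 (log2 ratio -3.09). For GABA-A receptors 4 of 13 subunits were higher (2 without mouse 1 or without the mouse block) and 8 lower, beside 30.9% and 31.5% of all genes. Gabra4 (1.07) and Gabrd (1.30), the partners of extrasynaptic receptors, were higher. Gabrb2 was lower at 278, 274 and 269 CPM against 321, 329 and 323 (log2 ratio -0.25, SE 0.07), though it was not called without mouse 1 (adjusted p = 0.053).

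Voltage-gated sodium, calcium and HCN channel genes had a median of 0.66 (0.69, 0.63 and 0.54 in mice 1, 4 and 7), with 18 of 30 higher and 8 lower (5 without mouse 4). Scn4b, the sodium channel beta 4 subunit that is abundant in striatal neurons, was at 1586, 2205 and 1185 CPM in TRAP and 211, 264 and 204 CPM in total-RNA (log2 ratio 2.84, SE 0.10, adjusted p = 6.077e-08). Of 41 potassium channel genes 18 were higher and 20 lower. Both counts stand beside 30.9% higher and 31.5% lower over all genes. Kcnab1 (2.12), Kcnip2 (2.03) and Kcna4 (1.37), all subunits of or partners to A-type channels, were higher, and Kcnj10, the inward rectifier of glia, was lower at 32.3, 14.2 and 28.5 CPM against 209, 222 and 178 (log2 ratio -3.08).

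Among 23 neuropeptides, granins and processing genes, 8 were higher and 11 lower (7 without mouse 1), beside 30.9% and 31.5% of all genes. Besides Penk, Tac1 and Pdyn, the higher ones included Vgf (2.10), Pcsk1n (1.38), Scg2 (0.90) and Nts (2.38, at 9.01 to 17.9 CPM in TRAP). Cck, the peptide of cortical pyramidal cells and basket cells, was lower at 94.0, 82.2 and 98.7 CPM against 264, 221 and 254 (log2 ratio -1.43, SE 0.07). Scg3, a granin that sorts cargo into dense-core vesicles, was lower at -2.01.

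Immediate early genes are transcribed by neurons within minutes of activity. Of 21, 12 were higher and 4 lower, beside 30.9% and 31.5% of all genes. Egr1 was the most abundant at 598, 484 and 534 CPM in TRAP and 212, 203 and 164 CPM in total-RNA (log2 ratio 1.49, SE 0.09, adjusted p = 6.394e-07). Egr3 (1.08) and Jund (1.04) were higher, Jun (-1.43) was lower, and Arc, at 116, 53.1 and 130 CPM against 81.9, 61.1 and 76.8, overlapped between the groups and was not called (log2 ratio 0.36, SE 0.15) except by DESeq2, without the filter or without mouse 4.

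SR proteins, hnRNPs and splicing kinases were higher in 23 of 40 and lower in 2, Son (-0.50) and Srrm4 (-0.57, not called without mouse 1), with Hnrnpa0 at 1.58 and Ddx5 at 0.45 among those that were higher. Clustered protocadherins were higher in 24 of 52 and lower in 2, Pcdhgc3 (-1.82) and Pcdhgc4 (-1.20), and members of the alpha and gamma clusters share their last exons within a cluster, so reads there cannot be assigned to one gene. Replication-dependent histones, whose mRNAs lack a poly(A) tail and are kept by rRNA depletion, were higher in 16 of the 45 that could be tested (beside 30.9% of all genes) and lower in 4 (7 without mouse 7). Many histone genes are near-identical copies. Zinc finger genes named Zfp were higher in 73 and lower in 81 of 334, with a median of -0.09. Each of these class counts stands beside 30.9% higher and 31.5% lower over all genes.

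Long noncoding RNAs of the nucleus were lower. Of 10 tested 7 were lower, beside 31.5% of all genes, with a median of -0.99. Malat1, a component of nuclear speckles, was at 739, 1307 and 631 CPM in TRAP and 3806, 2736 and 4183 CPM in total-RNA (log2 ratio -2.06, SE 0.25, adjusted p = 6.463e-05). Meg3 (-1.21) and Rian (-1.09), transcripts of one imprinted locus, were lower as well. Mouse 4 was highest for Malat1 and Meg3 in TRAP, opposite to its place in the glial and mitochondrial lists. Peg13 was the exception at 575, 689 and 504 CPM against 396, 426 and 371 (log2 ratio 0.56, SE 0.07).

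Over the whole biotype, which includes members of that list, lincRNAs were higher in 49 and lower in 65 of 245 tested. Gm42418 was the most abundant noncoding gene that was higher, at 4684, 2552 and 1797 CPM against 1187, 1272 and 551 (log2 ratio 1.56), though it was not called in the fit to all 22 libraries (adjusted p = 0.088), and it overlaps CT010467.1 by 1822 bases and AY036118 by 923 bases, both on the other strand, in a region with ribosomal RNA sequence. The part of residual ribosomal RNA in it was not tested. By the rule of size, Gm39043 (2.91), Gm38575 (2.84) and Gm39244 (2.20) were the noncoding genes with the largest increases. 2900052N01Rik (-2.99), Rmst (-2.72) and Gm28928 (-2.57) had the largest decreases. Processed pseudogenes were called in few cases, 53 higher (9.41%) and 34 lower (6.04%) of 563.

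Ratios were also related to the build of the transcript. Over 12970 protein-coding genes Spearman's rho with the log2 ratio was -0.21 for transcript length, -0.19 for coding length, -0.11 for the length of the 3′ UTR, -0.24 for the span of the gene and 0.21 for the GC content of the transcript. With the mean level of the gene rho was 0.28, larger in size than any of these. All are descriptions across genes, which share libraries and are not independent replicates. When these genes were ordered into 5 groups of equal size, in the group with the shortest transcripts (243 to 1796 bases) the median ratio was 0.28 and 44.9% were higher, whereas in the group with the longest it was -0.24 and 20.9% were higher. From the lowest to the highest group of GC content the median went from -0.17 to 0.30. The direction was the same in mice 1, 4 and 7, with rho of -0.20, -0.20 and -0.20 for transcript length. For transcript GC content rho was 0.15, 0.19 and 0.27. In the group with the lowest mean level, under 5.92 CPM, the median was -0.87, 49.5% were lower and 8.91% higher. The total-RNA libraries were deeper, and the part of the filter on summed counts in this was not tested.

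**Figure D5:**
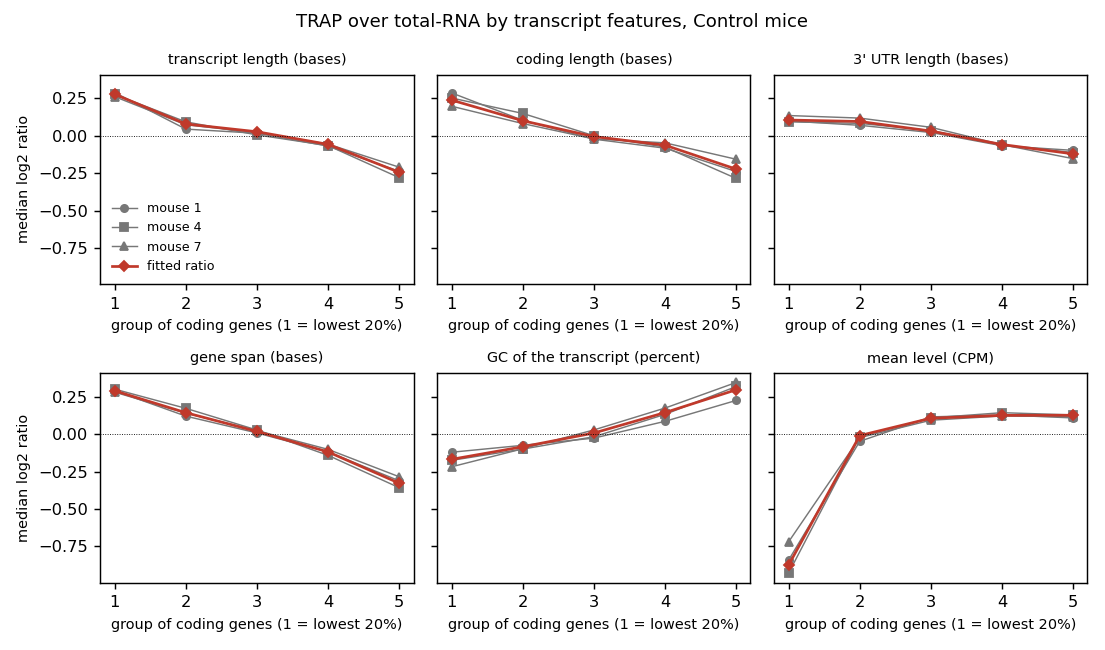
Median log2 ratio of TRAP over total-RNA in 5 equal groups of 12970 protein-coding genes ordered by transcript length, coding length, 3′ UTR length, gene span, transcript GC content or mean level, for the fitted ratio and for each mouse. The median fell with length and span, rose with GC content and was lowest in the group with the lowest level, in each of the 3 mice.

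The contrast was also made in the treated mice. In EtOH mice 8276 genes were called (58.8%) and in EtOH+ABT-888 mice 7642 (54.3%). Of the genes called in Control, 96.9% had the same direction in EtOH and 97.5% in EtOH+ABT-888, and 80.1% and 77.9% were also called in that direction. Striatal markers had a median log2 ratio of 2.68 in EtOH and 2.95 in EtOH+ABT-888, and astrocyte markers had -3.03 and -2.93. Other lists moved further. Pyramidal neuron markers had -1.29 and -1.41 beside -0.84 in Control, and layer 6 and subplate markers -0.996 and -0.78 beside -0.32. Cytosolic ribosomal proteins had 0.41 and 0.33 beside -0.01, host genes of small nucleolar RNAs 0.38 and 0.41 beside -0.19, and immediate early genes -0.26 and -0.32 beside 0.42, opposite in sign. These differences in list medians were not tested. For Slc17a7 the ratio was -1.97 and -2.10, and for Neurod6 -2.98 and -3.22. A direct test of the difference in ratio called 14 genes for EtOH against Control (0.0995%) and 0 for EtOH+ABT-888 against Control, with 1488 and 1035 genes at an unadjusted p under 0.05 in edgeR's test. The 14 included the thyroid hormone-binding protein Crym, lower in TRAP of Control mice (-1.33) and higher in that of EtOH mice (0.69), and Wfs1 (0.62 and 1.89). The call of Wfs1 in that test was lost without the mouse block (adjusted p = 0.57) and with each Control mouse left out (adjusted p = 0.057 to 0.26).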

How the data were processed

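RNA was extracted from PFC lysate before the pull-down (total-RNA) and from ribosomes held by an anti-EGFP antibody (TRAP), and libraries were made after rRNA depletion. Per the labels and the study's methods, the authors aligned paired reads to mm10 with STAR and deposited raw counts per Ensembl gene from featureCounts, with all samples in 1 table. Versions, the strand setting and the handling of multimapping reads are not given in the sources used here, so the reads of a gene that overlaps another on the other strand cannot be told apart. Such overlaps are common among the genes named, and only some are printed, besides those given for example Tshz2 with Gm26883 (5076 bases), Rmst with Gm26700 (1955), Pcdhgc3 with BC037039 (1559), Meg3 with Gm26906 (1228) and Arpp21 with 2900079G21Rik (580). Blank or summary rows were not present, and no column was left without a sample.

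Names, biotypes and coordinates were taken from GENCODE M21, which named 38872 of 39056 gene IDs. Following the study's methods, genes with at least 500 counts over the 22 libraries and a count in at least 3 libraries were tested, which left 14072 and removed 24984. In R 4.3.3, edgeR 4.0.16 was used with TMM factors, a quasi-likelihood fit to the 6 Control libraries and the mouse as a block, and Benjamini-Hochberg adjustment. The pairing comes from the animal numbers in the labels. Same-mouse libraries deviated together from their group means (r = 0.103, 0.174 and 0.149) and every library correlated best with its own mouse. With 3 mice per group, p-values measure the spread between these animals. The study itself used edgeR's exact test, which is given as an alternative. EtOH and EtOH+ABT-888 were fitted in the same way, and differences in ratio by an interaction over all 22 libraries. On simulated counts with 200 genes changed by 1.5 on the log2 scale, the fit recovered 99.5% with 8 false calls. The changed genes were drawn from those with higher counts, raised and lowered in equal number, and no mouse effect was simulated. In the real contrast 62.5% of genes were called, so these figures do not give its recovery or false calls.

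Lists of cell type markers and gene classes were written from general knowledge, and the comparison and the lists were chosen with earlier results of these data known. Lists are described by counts and medians, with no test of the list. The genes named were Camk2a, S100b and Rpl10a, up to 4 most abundant members of a list and up to 4 called against its majority, the 10 coding genes of largest change in each direction (called, at least 5 CPM on average, groups not overlapping), and by the same rule 3 noncoding genes each way with the 5 most abundant. Other members were named after their values were seen, for their role in the list. Transcript features are those of the basic transcript with the longest coding sequence. Promoters are from RefSeq on GRCm38.p6 and were found for 13 of 18 striatal markers. Alternatives were edgeR without the block, its exact test, DESeq2 1.42.0, RLE factors, library size alone, no filter, filterByExpr, a fit to all 22 libraries, total-RNA thinned to the depth of TRAP, a threshold of 0.01 and each mouse left out. Some genes are not reported here.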

Additional observations from a re-analysis of the deposited data

Results flagged for a closer look

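The ratio of TRAP to total-RNA of Crym differed between EtOH and Control mice by an interaction test with the mouse as a block in edgeR (difference in log2 ratio 2.03, adjusted p = 0.002). It was lower in TRAP in Control (-1.33) and higher in EtOH (0.69), with 0.16 in EtOH+ABT-888. Wfs1 differed in the same test by 1.27 (adjusted p = 0.027), with ratios of 0.62 in Control, 1.89 in EtOH and 1.56 in EtOH+ABT-888. Both are among the 14 genes called there. Crym kept its call with each Control mouse left out (adjusted p = 0.0089 to 0.025) and without the block (adjusted p = 0.028). Wfs1 lost it without mouse 1, mouse 4 or mouse 7 (adjusted p = 0.26, 0.21 and 0.057) and without the block (adjusted p = 0.57). At an unadjusted p under 0.05 the same test held 1488 genes.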

How the results depend on the processing

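In Control the call count stayed between 7001 and 9363 of the genes tested over all alternatives, against 8788. It was 7993 with DESeq2, 8656 with the exact test, 8670 with total-RNA thinned to TRAP depth, 9363 of 25418 without the filter, 7001 at an adjusted p under 0.01 and 7401 to 8197 with each mouse left out. No gene called both ways changed direction, and the share of calls that were higher was 45.6 to 50.0% beside 49.6%. Without the replicate block, that is without pairing libraries by mouse, 8428 genes were called in Control, 7141 in EtOH and 5769 in EtOH+ABT-888. RLE factors moved the median gene by -0.01 and library size alone by -0.03 on the log2 scale. No list median of a cell type changed sign under any of them. Medians of ribosomal proteins, glycolytic enzymes, chaperones, endoplasmic reticulum genes and small nucleolar RNA hosts lay near 0 and changed sign under some. Of the genes named, 13 besides Kl gained or lost their call under some alternative. For Cux1 and Sst, not called in Control with all mice, the estimate changed sign with a mouse left out (Cux1 -0.14 to 0.064, Sst -0.51 to 0.26). For the test of EtOH against Control the 14 calls (9 larger, 5 smaller ratios) became 290 (112 and 178) without the filter, 3 (2 and 1) without the block and 1 to 6 with a Control mouse left out (larger 1 to 5, smaller 0 to 1). For EtOH+ABT-888 the 0 calls became 2 with RLE factors, both larger, and 177 (71 and 106) without the filter. The cause was not tested. Depth limited rare genes, with a median SE of 0.38 under 5 CPM against 0.08 at 50 CPM or more.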
